A study of Mus musculus with 24 samples.

Results

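The Slc25 genes encode the mitochondrial solute carriers, the proteins that pass metabolites across the inner mitochondrial membrane. Their transcripts were followed in the gastrocnemius muscle of mice, a mixed leg muscle. Members were all array probes whose gene symbol was Slc25a followed by a number, apart from Slc25a20, which was left out by the rule that defined the set. This gave 73 probes of 44 genes among 41174 probes in all. Of these, 45 probes of 30 genes gave a signal of at least 2 times the local background in both dyes, averaged over the arrays, and only these were compared between diets.

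All mice were male C57BL/6N mice, which from the age of 3 months ate a corn-oil-based diet rich in fat (35% of its weight) for 8 weeks. The control group (cHF, n = 8) had this diet alone. In the cHF+F group (n = 8), 15% of the lipids were replaced by an n-3 LC-PUFA concentrate, that is, long-chain omega-3 fatty acids (46% DHA and 14% EPA), and in the cHF+ROSI group (n = 8) the diet held 10 mg rosiglitazone, an agonist of the nuclear receptor PPARγ, per kg. Before they were killed, all mice had been fasted for 10 h and then fed a standard chow overnight, so every value describes muscle after that switch and not during high-fat feeding. RNA of 1 mouse (Cy5) was hybridized on each of 24 arrays against a pool of the samples (Cy3), and the log2 ratio of Cy5 to Cy3 is the unit of the values below, so that 0 is the level of the pool. The pool also held RNA of mice on a higher dose of rosiglitazone. A log2 change is the difference between the means of 2 groups on this scale. Levels cannot be ranked between genes from such ratios. In whole muscle, fewer cells of a type and less RNA per cell cannot be told apart.

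The carriers share a common fold and differ in what they carry. The ADP/ATP carriers and the phosphate carrier supply the ATP synthase of muscle mitochondria, the malate-aspartate shuttle brings reducing equivalents of glycolysis into the matrix, and other members carry amino acids, cofactors, nucleotides and iron. Fatty acid oxidation raises the demand on several of these routes, and rosiglitazone and n-3 fatty acids both act on nuclear receptors that control genes of lipid metabolism.

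No Slc25 transcript passed the test between any pair of diets after adjustment over all probes. Against cHF, 22 of the 30 members in cHF+F and 20 in cHF+ROSI lay within 0.1 of no change. The glutamate carrier Slc25a22 was the member with the smallest p, without a block, in both comparisons with cHF, at -0.24 in cHF+F and -0.26 in cHF+ROSI. With the slide as a block, Slc25a33 and Slc25a11 had a smaller p than Slc25a22 in cHF+ROSI. The widest spread between mice within a diet was in Slc25a35, followed by Slc25a30, Slc25a25 and Slc25a4, the muscle ADP/ATP carrier.

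The promoters of 3 members are given here for reference to their results below: Slc25a22, with the smallest p against cHF, Slc25a33, with the smallest p among the members that were higher in cHF+ROSI, and Slc25a4. Each holds 300 bases around the start of the gene, most of them upstream, from RefSeq on build GRCm38.p6, in lower case with every GC box (GGGCGG on either strand) in capitals. Slc25a22 has 3 such starts, and the one with the most GC boxes is shown.
Slc25a22, chr7:141435326-141435625, minus strand: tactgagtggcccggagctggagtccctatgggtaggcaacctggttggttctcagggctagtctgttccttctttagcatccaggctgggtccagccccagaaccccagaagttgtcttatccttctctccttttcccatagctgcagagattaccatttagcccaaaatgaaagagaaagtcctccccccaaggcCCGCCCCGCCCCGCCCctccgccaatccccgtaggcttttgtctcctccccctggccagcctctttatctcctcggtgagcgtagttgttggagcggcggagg
Slc25a33, chr4:149774218-149774517, minus strand: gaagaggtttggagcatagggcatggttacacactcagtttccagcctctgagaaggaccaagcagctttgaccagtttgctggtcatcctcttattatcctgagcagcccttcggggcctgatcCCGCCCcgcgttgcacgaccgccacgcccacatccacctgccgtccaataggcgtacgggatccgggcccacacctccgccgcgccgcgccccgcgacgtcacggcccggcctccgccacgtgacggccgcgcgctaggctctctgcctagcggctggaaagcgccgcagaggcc
Slc25a4, chr8:46211013-46211312, minus strand: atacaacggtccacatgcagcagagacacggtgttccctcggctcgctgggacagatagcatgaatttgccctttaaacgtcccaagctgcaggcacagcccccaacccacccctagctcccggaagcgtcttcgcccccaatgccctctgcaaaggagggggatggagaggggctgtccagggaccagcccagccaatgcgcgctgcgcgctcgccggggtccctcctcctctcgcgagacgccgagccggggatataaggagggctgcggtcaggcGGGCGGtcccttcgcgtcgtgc
The table held 42 promoters of 33 Slc25 genes. Promoters of 1 gene can overlap, as those of Slc25a14 do, so the same GC box can count more than once. A GC box stood in 35 of them (83.3%), against 35.7% of all 32851 promoters of the table. The nuclear receptor motif AGGTCA, on either strand, stood in 4 of the 42 (9.52%) and in 16.3% of all promoters, and it was in none of the 3 shown. A match is a run of letters, not a measured binding site.

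Detection was described for all 44 genes. In Cy5, 24 genes had a probe well above background on all 24 arrays (the call of the scanner software). Of the 14 genes that were not kept, 7 had no probe above background on more than 2 arrays. These were Slc25a18 and Slc25a21, carriers of glutamate and of oxodicarboxylates, Slc25a31, the ADP/ATP carrier of germ cells, Slc25a41, an ATP-Mg/phosphate carrier, and Slc25a34, Slc25a43 and Slc25a48. For 6 of them the only such array was that of cHF+ROSI mouse 4, and Slc25a48 was also well above background in cHF+ROSI mouse 1. On the array of cHF+ROSI mouse 4, 91.1% of all spots were well above background in Cy5, against 30.4% to 61.3% on the other 23 arrays. The other 7 genes were dim but detected on some arrays: Slc25a2 and Slc25a45 on 22 arrays, the glutathione carrier Slc25a40 on 21, the aspartate/glutamate carrier Slc25a13 on 20, the ornithine carrier Slc25a15 on 15, the ATP-Mg/phosphate carrier Slc25a23 on 12 and the coenzyme A carrier Slc25a42 on 11. The other aspartate/glutamate carrier, Slc25a12, was well above background on all 24 arrays. Slc25a53 and Slc25a54 had no probe matched here.

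**Figure D1:**
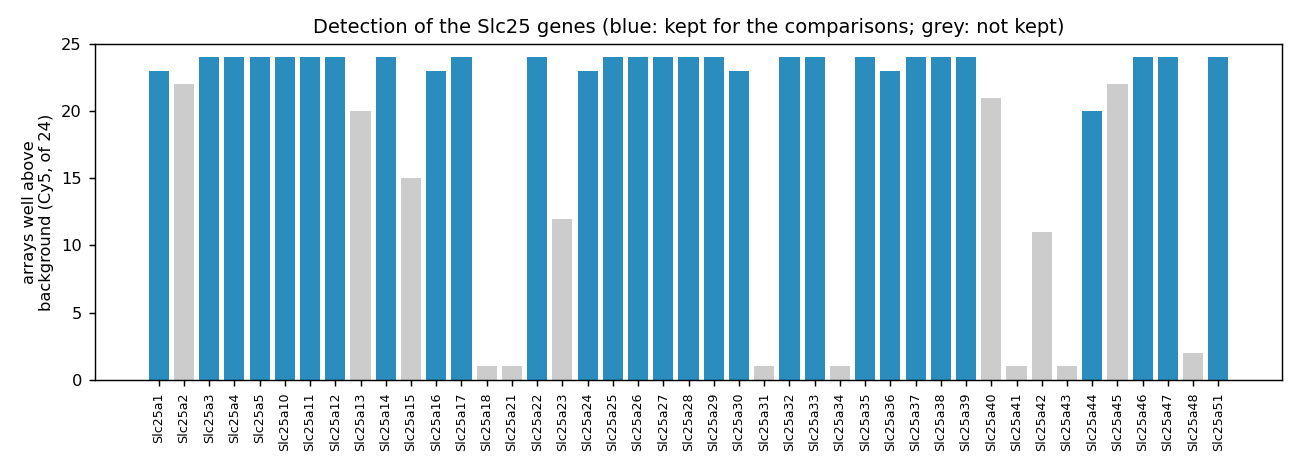
Number of arrays, of 24, on which the best probe of 43 of the 44 Slc25 genes was well above background in the muscle channel. Blue bars are 29 of the 30 genes kept for the comparisons and grey bars the 14 that were not, 6 of which reached this level on 1 array.

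The comparison of cHF+F with cHF asked how n-3 LC-PUFA changed the carriers. With limma across 15958 probes, none of the 30 members had an adjusted p under 0.05, and the smallest was 0.613, for Slc25a22. The same fit called 0% of all probes. At an unadjusted p under 0.05, 0 members were higher, where 2.85% of all probes were, and 1 was lower, where 4% of all probes were. The median log2 change of the members was 0.018, with 20 higher and 10 lower, beside a median of 6.3e-04 over all probes tested. The 95% interval of the change lay within 1.5-fold in either direction for 27 of the 30 members.

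The comparison of cHF+ROSI with cHF asked the same of rosiglitazone. Here too limma called 0% of all probes and 0 of the 30 members, with a smallest adjusted p of 0.996. At an unadjusted p under 0.05, 1 member (Slc25a33) was higher, where 1.69% of all probes were, and 2 (Slc25a22 and Slc25a27) were lower, where 3.01% were. The median log2 change was -0.0045, with 14 members higher and 16 lower, beside -0.0086 over all probes. The interval lay within 1.5-fold for 27 members. Each slide carried 1 array of every diet. With the slide as a block, 6 members had an unadjusted p under 0.05 in place of 3, with 0 called. These were Slc25a33, Slc25a11, Slc25a22, Slc25a3, Slc25a27 and Slc25a4. The share of all probes at this level in the block model is not given here, so counts with this block have no background beside them.

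Set directly against each other in cHF+F versus cHF+ROSI, the diets gave 0 called members and 0% of all probes called. The phosphate carrier Slc25a3 was higher in cHF+F at an unadjusted p under 0.05, so 1 member was higher, where 4.02% of all probes were, and 0 were lower, where 2.65% were. The median log2 change was 0.028, beside 0.0084 over all probes, with 21 members higher and 9 lower. The comparisons share groups and are not independent of each other. The values of cHF and of the 2 other diets overlapped for every member. The share of all probes that overlapped is not given here, so this is not a trait particular to the members.

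**Figure D2:**
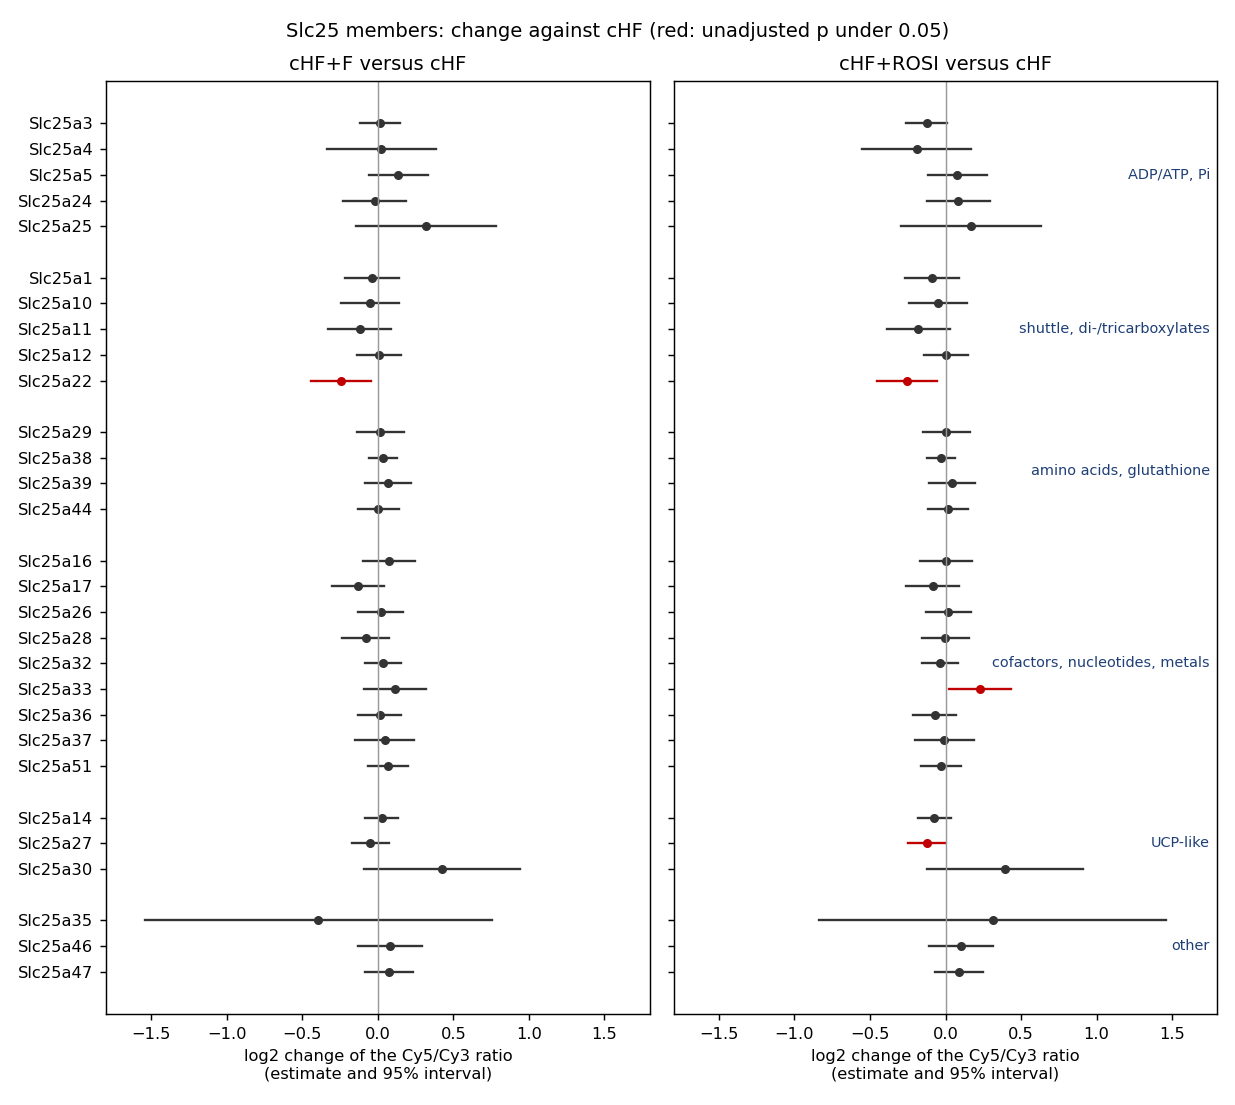
Log2 change of 29 of the 30 kept members against cHF, for cHF+F (left) and cHF+ROSI (right), with 95% intervals from limma and members grouped by what they carry. Red marks an unadjusted p under 0.05, reached by Slc25a22 in cHF+F and by Slc25a22, Slc25a33 and Slc25a27 in cHF+ROSI, and none passed the adjustment.

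Among the carriers of adenine nucleotides and phosphate, 0 of 5 members had an unadjusted p under 0.05 against cHF. With the slide as a block 2 of 5 did in cHF+ROSI, Slc25a3 (adjusted p = 0.437, limma) and Slc25a4 (adjusted p = 0.519), both below cHF on 7 of 8 slides. In cHF+ROSI against cHF, a second probe gave 0.022 for Slc25a3, of opposite sign, and -0.045 for Slc25a4. Slc25a4, the ADP/ATP carrier of heart and muscle (probe at chr8:47707904-47707963 on build mm8), had the brightest signal over background of the family. In cHF mice its log2 ratio ran from -0.30 to 0.63 with a median of 0.39, in cHF+F mice from -0.077 to 0.56 with a median of 0.32 and in cHF+ROSI mice from -0.98 to 0.47 with a median of 0.33. The groups overlapped, and the lowest value was that of cHF+ROSI mouse 3. Against cHF its mean log2 difference was 0.023 in cHF+F (95% interval -0.34 to 0.38) and -0.19 in cHF+ROSI (95% interval -0.55 to 0.17). Without cHF+ROSI mouse 3 the latter was -0.04.

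The values of Slc25a4 were split by slide. The 9 arrays of slides 1 to 3 lay between -0.98 and 0.18 and the 15 arrays of slides 4 to 8 between 0.30 and 0.63, with no overlap. The mean log2 ratio of 6 skeletal muscle fibre markers (Acta1, Ckm, Mylpf, Tnnt3, Myh4 and Atp2a1), which had bright probes as well, ran from -0.85 to 0.24 on slides 1 to 3 and from 0.18 to 0.68 on slides 4 to 8. With group means removed, Slc25a4 and this mean correlated at r = 0.97 and rho = 0.90 on slides 1 to 3 (n = 9, permutation p = 0.0175 for both), and at r = 0.45 and rho = 0.43 on slides 4 to 8 (n = 15, permutation p = 0.136 and 0.13). Without the 2 arrays farthest from the median, r was 0.89 on slides 1 to 3 (n = 7, permutation p = 0.165, where few arrangements within groups are left) and 0.44 on slides 4 to 8 (n = 13, permutation p = 0.104). Adjusted over 6 sets of arrays (Benjamini-Hochberg), the permutation p on slides 1 to 3 was 0.035. Sets that pooled all slides were among the 6 and had the smallest p, which lowers this adjusted value. It therefore cannot be read as a result of slides 1 to 3 alone. No r is given over all 24 arrays, since the slides form separate clusters. This relation and the split by slide were chosen after the values were seen. The 9 arrays of slides 1 to 3 also allow only few arrangements within groups. The median log2 ratio of the 319 brightest kept probes was -0.69 in cHF+ROSI mouse 3 and between -0.23 and 0.10 on the other 23 arrays. In Cy5 alone, with quantiles normalized between arrays, the SD of Slc25a4 within groups was 0.17 in place of 0.38. That normalization by itself narrows the spread of the brightest probes, so these SDs are not alike in kind. The part of the array normalization in these values was not tested.

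**Figure D3:**
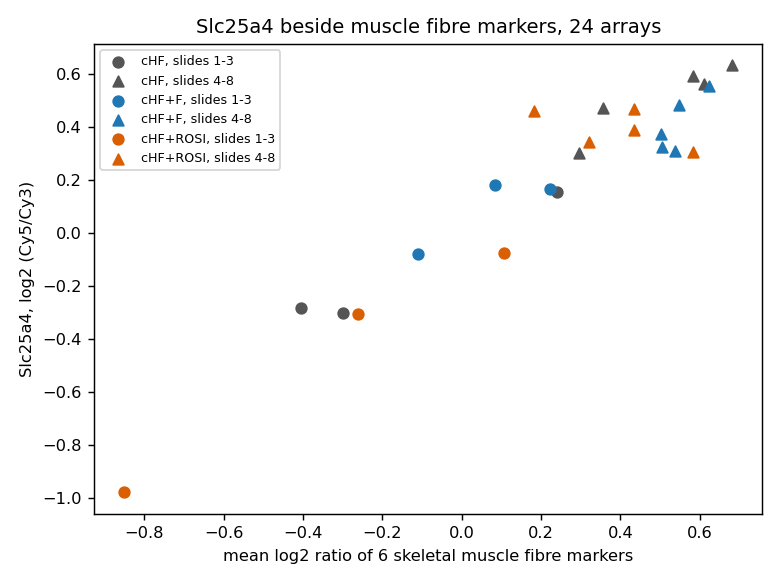
Log2 ratio of Slc25a4 (vertical) against the mean log2 ratio of 6 skeletal muscle fibre markers (horizontal), 1 point per array. Circles are the 9 arrays of slides 1 to 3 and triangles the 15 of slides 4 to 8, and all triangles lie above all circles on the vertical axis.

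Slc25a5, the ADP/ATP carrier form of proliferating cells (chrX:33229925-33229984, mm8), was measured with a single probe. Across the 8 cHF mice the log2 ratio ran from -0.35 to 0.044 with a median of -0.11, across cHF+F mice from -0.29 to 0.42 with a median of -0.05 and across cHF+ROSI mice from -0.28 to 0.32 with a median of -0.066. The difference of means from cHF was 0.13 in cHF+F and 0.078 in cHF+ROSI (adjusted p = 0.888 and adjusted p = 0.996, limma), inside the spread between mice. Slc25a3, the phosphate carrier (chr10:90548015-90548556, mm8), gave the smallest p between the 2 supplemented diets. Single mice had log2 ratios of Slc25a3 from -0.16 to 0.12 with a median of -0.10 in cHF, from -0.20 to 0.022 with a median of -0.035 in cHF+F and from -0.50 to 0.064 with a median of -0.21 in cHF+ROSI. Its log2 change was 0.016 in cHF+F and -0.13 in cHF+ROSI, and 0.14 between cHF+F and cHF+ROSI (adjusted p = 0.74, limma). In 9 of the 24 fits that left out 1 mouse that difference had an unadjusted p above 0.05, and it was lowest, 0.10, without cHF+ROSI mouse 3. In Cy5 alone the change in cHF+ROSI against cHF was 0.12, of opposite sign. Without slides 1 to 3 the difference between the supplemented diets was 0.046 (adjusted p = 0.963, limma). The second probe of Slc25a3 gave 0.02 for this difference over all slides.

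The ATP-Mg/phosphate carriers exchange cytosolic adenine nucleotides for matrix phosphate. Slc25a24 had a log2 change of -0.019 in cHF+F and 0.085 in cHF+ROSI. Slc25a25 (chr2:32236764-32236823, mm8) varied far more between mice. The log2 ratio of Slc25a25 ran from -1.04 to 0.72 with a median of -0.33 in cHF, from -0.52 to 0.76 with a median of -0.0017 in cHF+F and from -0.79 to 0.68 with a median of -0.16 in cHF+ROSI. The 3 diets overlapped. Against cHF its mean log2 difference was 0.32 in cHF+F and 0.17 in cHF+ROSI (95% interval -0.14 to 0.79 in cHF+F), and the other 2 probes of the gene, which correlated with it at 0.92 and 0.91 over the arrays, gave 0.35 and 0.20 in cHF+F. On slides 4 to 8 alone (5 mice a group, a restriction chosen after the values were seen) the change was 0.59 (adjusted p = 0.609, limma) in cHF+F and 0.42 (adjusted p = 0.614, limma) in cHF+ROSI. That restriction leaves out cHF mice 1 to 3, which had the highest values of cHF, so the larger changes are not a separate result.

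Among the malate-aspartate shuttle and the di- and tricarboxylate carriers, 4 of 5 members had a mean below that of cHF in each diet, Slc25a22 at an unadjusted p under 0.05. Slc25a22, a carrier of glutamate into the matrix, was measured at chr7:141281510-141281569 on mm8 by a single probe with a signal of 2.90 times background in Cy3. In cHF mice its log2 ratio ran from -0.30 to 0.11 with a median of 0.0037, in cHF+F mice from -0.62 to -0.15 with a median of -0.22 and in cHF+ROSI mice from -0.68 to 0.077 with a median of -0.28. In cHF+F all 8 mice lay below the cHF mean, and the ranges overlapped through cHF mouse 1 at -0.30. In cHF+ROSI 6 of 8 mice lay below the cHF mean, and mice 1, 2, 3 and 6 lay within the range of the cHF mice. Mouse 1, at -0.22, did so only through cHF mouse 1. The means were -0.029 ± 0.14, -0.27 ± 0.16 and -0.28 ± 0.28 (SD, n = 8 each). The log2 change was -0.24 in cHF+F (95% interval -0.44 to -0.045; adjusted p = 0.613, limma) and -0.26 in cHF+ROSI (95% interval -0.46 to -0.057; adjusted p = 0.996). The within-slide difference was negative on 7 of 8 slides in cHF+F and on 6 of 8 in cHF+ROSI. The diets share the cHF mice, so these are not separate results. Leaving out each mouse in turn kept the unadjusted p under 0.05 in cHF+ROSI, and in cHF+F it passed 0.05 without cHF+F mouse 7. At a stricter signal minimum of 3 times background the probe was not kept.

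Slc25a11, the 2-oxoglutarate/malate carrier of the shuttle, followed. Across the 8 cHF mice the log2 ratio ran from -0.28 to 0.17 with a median of -0.022, across cHF+F mice from -0.35 to 0.11 with a median of -0.20 and across cHF+ROSI mice from -0.71 to 0.15 with a median of -0.23. The difference of means from cHF was -0.12 in cHF+F and -0.18 in cHF+ROSI (adjusted p = 0.923 and adjusted p = 0.996, limma). In cHF+ROSI it was below cHF on 7 of 8 slides (adjusted p = 0.368 with the slide as a block, limma), and without cHF+ROSI mouse 3 its change was -0.11. Slc25a12, the aspartate/glutamate carrier, had a change of 0.0093 in cHF+F and 0.0046 in cHF+ROSI, with 95% intervals from -0.14 to 0.15 and from -0.14 to 0.15. The citrate carrier Slc25a1, which exports citrate for lipid synthesis, had -0.037 in cHF+F and -0.088 in cHF+ROSI, and the dicarboxylate carrier Slc25a10 had -0.054 in cHF+F and -0.049 in cHF+ROSI.

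The 4 carriers of amino acids and glutathione had log2 changes between -0.032 and 0.069 against cHF, with 0 of 4 at an unadjusted p under 0.05. The glycine carrier Slc25a38, needed for heme synthesis, was the least variable of the ones shown by mouse. Single mice had log2 ratios of Slc25a38 from -0.046 to 0.17 with a median of 0.021 in cHF, from -0.04 to 0.15 with a median of 0.092 in cHF+F and from -0.13 to 0.12 with a median of 0.022 in cHF+ROSI. Its log2 change was 0.033 in cHF+F and -0.032 in cHF+ROSI. The branched-chain amino acid carrier Slc25a44 had 0.0031 in cHF+F and 0.016 in cHF+ROSI, the basic amino acid carrier Slc25a29 had 0.017 in cHF+F and 0.0063 in cHF+ROSI, and the glutathione carrier Slc25a39 had 0.069 in cHF+F and 0.043 in cHF+ROSI. In the authors' deposited log2 values Slc25a44 was -0.19 in cHF+F at an unadjusted p under 0.05 (adjusted p = 0.394, limma). Of the kept members, Slc25a22 had the smallest p in those values, at -0.37 (adjusted p = 0.255, limma).

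Of the 10 carriers of cofactors, nucleotides and metals, Slc25a33, a pyrimidine nucleotide carrier (chr4:148588404-148588463, mm8), had the smallest p in cHF+ROSI. The log2 ratio of Slc25a33 ran from -0.55 to -0.036 with a median of -0.17 in cHF, from -0.46 to 0.15 with a median of -0.13 in cHF+F and from -0.31 to 0.36 with a median of -0.01 in cHF+ROSI. The cHF mice were all below 0 and the cHF+ROSI mice lay on both sides of it. The log2 change was 0.23 in cHF+ROSI (95% interval 0.022 to 0.43; adjusted p = 0.996, limma) and 0.11 in cHF+F. The difference from cHF was positive on 7 of 8 slides in cHF+ROSI, and the second probe gave 0.16. In 6 of the 24 fits that left out 1 mouse its unadjusted p was above 0.05, with the lowest change, 0.18, without cHF+ROSI mouse 3. With the processed signals of the scanner software the change was 0.091, and on slides 4 to 8 alone it was 0.15 (adjusted p = 0.7, limma).

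For Slc25a17, the cofactor carrier of peroxisomes, the brightest probe did not reach an unadjusted p under 0.05 in either diet, while a second kept probe did in cHF+ROSI. In cHF mice its log2 ratio ran from -0.20 to 0.37 with a median of 0.17, in cHF+F mice from -0.12 to 0.26 with a median of 0.01 and in cHF+ROSI mice from -0.12 to 0.53 with a median of 0.043. Against cHF its mean log2 difference was -0.13 in cHF+F and -0.086 in cHF+ROSI, and its other 2 probes gave -0.12 and -0.086 in cHF+F, and -0.16 and 0.021 in cHF+ROSI. The NAD carrier Slc25a51 was among the 5 smallest p between the supplemented diets. Across the 8 cHF mice the log2 ratio ran from -0.082 to 0.29 with a median of 0.045, across cHF+F mice from 0.016 to 0.41 with a median of 0.086 and across cHF+ROSI mice from -0.082 to 0.28 with a median of 0.03. The difference of means from cHF was 0.065 in cHF+F and -0.032 in cHF+ROSI. The iron importers Slc25a37 (mitoferrin 1) and Slc25a28 (mitoferrin 2) had 0.045 in cHF+F and -0.0071 in cHF+ROSI, and -0.078 in cHF+F and -0.002 in cHF+ROSI, respectively. Further changes of this group were 0.076 in cHF+F and 0.005 in cHF+ROSI for the coenzyme A carrier Slc25a16 and 0.02 in cHF+F and 0.018 in cHF+ROSI for the S-adenosylmethionine carrier Slc25a26. The folate or FAD carrier Slc25a32 had 0.035 in cHF+F and -0.035 in cHF+ROSI, and the pyrimidine nucleotide carrier Slc25a36 had 0.013 in cHF+F and -0.071 in cHF+ROSI. For Slc25a26 the 2 kept probes correlated at -0.44 over the arrays, so its level rests on the choice of probe.

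The members related to uncoupling proteins differed in their spread. Slc25a30, the kidney mitochondrial carrier (chr14:74495951-74496010, mm8), had the largest positive change against cHF in either diet and, after Slc25a35, the widest spread between mice. Single mice had log2 ratios of Slc25a30 from -1.16 to 0.30 with a median of -0.76 in cHF, from -1.07 to 0.72 with a median of -0.14 in cHF+F and from -0.85 to 0.65 with a median of -0.14 in cHF+ROSI. In cHF, mice 4 to 8 lay between -1.16 and -0.71 and mice 1 to 3 between -0.0056 and 0.30. The log2 change was 0.43 in cHF+F (95% interval -0.092 to 0.94) and 0.39 in cHF+ROSI (95% interval -0.12 to 0.91), and a second probe, which correlated with it at 0.98, gave 0.34 and 0.25. On slides 4 to 8 alone the changes were 0.79 (adjusted p = 0.613, limma) and 0.77 (adjusted p = 0.492, limma). This restriction was chosen after the values were seen and leaves out cHF mice 1 to 3, the highest of cHF. The larger changes are therefore not a separate result.

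Slc25a27 (uncoupling protein 4) had an unadjusted p under 0.05 in cHF+ROSI. The log2 ratio of Slc25a27 ran from 0.05 to 0.29 with a median of 0.17 in cHF, from -0.12 to 0.31 with a median of 0.10 in cHF+F and from -0.059 to 0.15 with a median of 0.032 in cHF+ROSI. All 8 cHF+ROSI mice lay below the cHF mean, within overlapping ranges. The log2 change was -0.13 (95% interval -0.25 to -0.0027; adjusted p = 0.996, limma) and -0.051 in cHF+F, and a second probe gave -0.024 in cHF+ROSI. In 12 of the 24 fits that left out 1 mouse its unadjusted p was above 0.05, with changes from -0.14 to -0.11, and without background correction the change was -0.06. Slc25a14 (uncoupling protein 5) had a narrow spread. In cHF mice its log2 ratio ran from 0.037 to 0.20 with a median of 0.12, in cHF+F mice from -0.064 to 0.27 with a median of 0.16 and in cHF+ROSI mice from -0.16 to 0.19 with a median of 0.058. Its log2 change was 0.025 in cHF+F and -0.073 in cHF+ROSI.

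In the remaining group, Slc25a35 had an SD of 1.25 within groups, larger than that of 99.9% of the kept probes, where the median member had 0.17 and the median kept probe 0.15. Across the 8 cHF mice the log2 ratio ran from -2.35 to 1.52 with a median of -0.67, across cHF+F mice from -2.41 to 0.97 with a median of -0.48 and across cHF+ROSI mice from -2.31 to 1.15 with a median of -0.10. Several cHF mice lay at each end. In cHF+F only mouse 3 lay above 0 (0.97, next -0.078), and in cHF+ROSI only mouse 7 lay at the low end (-2.31, next -0.32). The log2 change was -0.39 in cHF+F (95% interval -1.54 to 0.76) and 0.31 in cHF+ROSI (95% interval -0.84 to 1.46), so the interval held a 2-fold decrease in cHF+F and a 2-fold increase in cHF+ROSI. The second probe of the gene, 2.85 times background, gave 0.038 and -0.014 and correlated with it at only 0.09. Slc25a46, an outer membrane protein of mitochondrial dynamics, had 0.081 in cHF+F and 0.10 in cHF+ROSI, and Slc25a47 had 0.073 in cHF+F and 0.087 in cHF+ROSI.

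**Figure D4:**
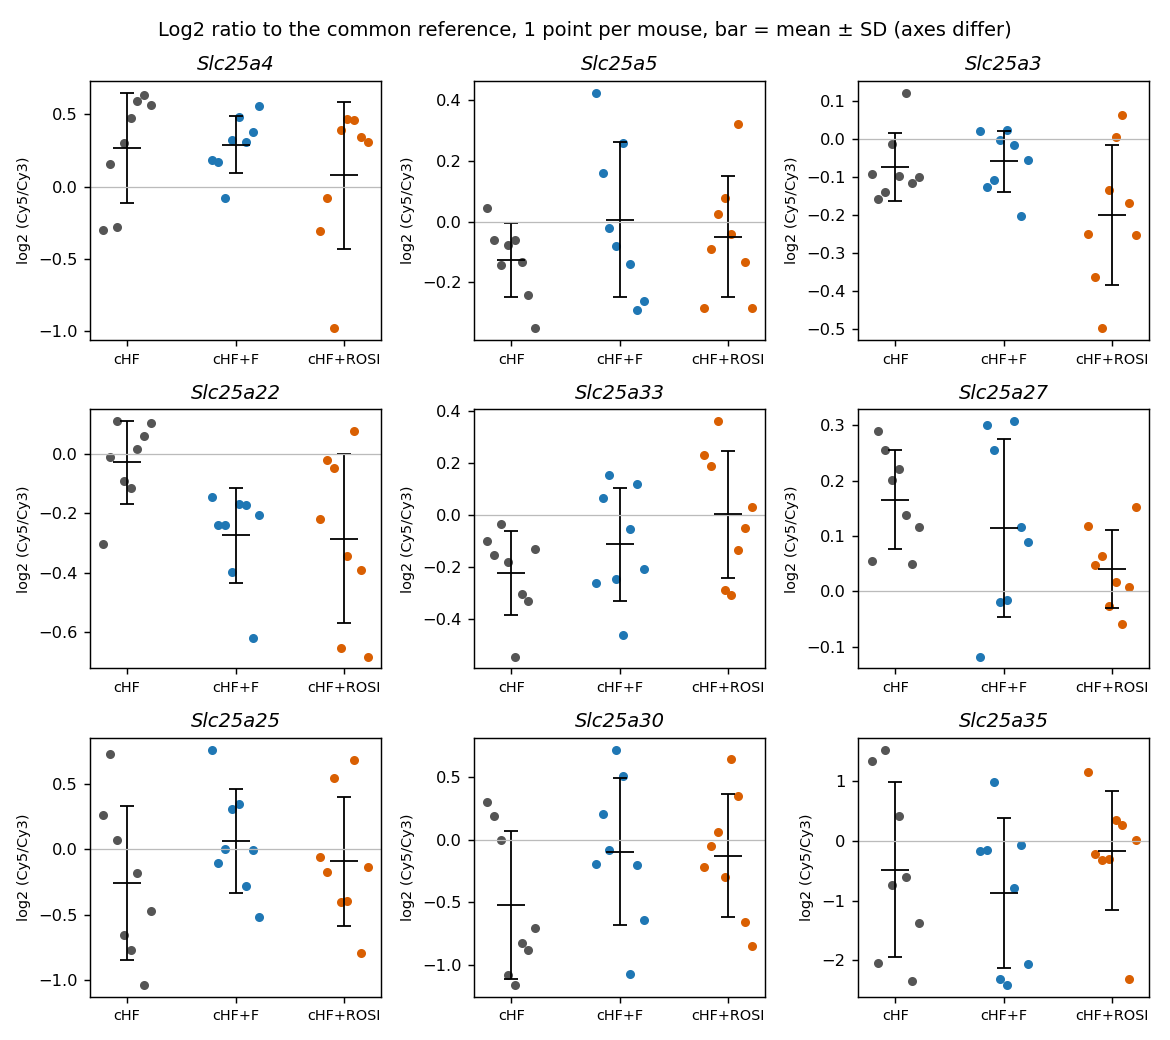
Log2 ratio to the reference pool for 9 members, 1 point per mouse and 8 mice per diet, with mean and SD. The vertical axes differ. Slc25a35, Slc25a30 and Slc25a25 spread over more than 1 log2 unit within every diet, and Slc25a4 did so in cHF+ROSI. The diets overlap in every panel.

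Every array carried the same pool in Cy3, so differences between diets in that channel are a background. In Cy3 alone, 0 members in cHF+F, 1 in cHF+ROSI (Slc25a3, at 0.16) and 0 between the supplemented diets had an unadjusted p under 0.05. With the slide as a block these counts were 0, 4 and 1, beside 1, 6 and 2 for the ratios in the same model. The 4 in cHF+ROSI were Slc25a22 at -0.16, in the direction of its ratio, Slc25a3 at 0.16, opposite to its ratio, Slc25a39 at -0.20 and Slc25a46 at 0.25, and Slc25a39 was the 1 between the supplemented diets. The share of all probes at this level in Cy3 is not given here, with or without the block. The counts of members in Cy3 therefore cannot be called high or low.

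Proteins that import carriers or work beside them were tested as lists. Of 12 genes of carrier import, which guide carriers through the outer and into the inner membrane, 0 had an unadjusted p under 0.05 against cHF in either diet, with medians of 0.028 and 0.029. Between cHF+F and cHF+ROSI, Timm8b was 0.13 ± 0.062 (SE) and Timm29 was 0.17 ± 0.062 (SE). Of 12 kept genes of other metabolite transport, the outer membrane channel Vdac1 was -0.21 ± 0.10 (SE) in cHF+F and -0.25 ± 0.10 (SE) in cHF+ROSI, and the carrier-related Mtch1 was -0.12 ± 0.054 (SE) in cHF+ROSI. Of 12 enzymes paired with the carriers, Got2, the mitochondrial aspartate aminotransferase of the malate-aspartate shuttle, was -0.17 ± 0.071 (SE) in cHF+ROSI. Between cHF+F and cHF+ROSI, Ppif was 0.19 ± 0.067 (SE) and Alas1 was 0.20 ± 0.10 (SE). All adjusted p in limma were above 0.05.

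Cell type markers were followed beside the carriers. All 6 skeletal muscle fibre markers were well above background on all 24 arrays. Of 8 slow fibre markers, 7 were lower in cHF+F, with a median change of -0.43, and 3 had an unadjusted p under 0.05: Tnni1 at -0.81 ± 0.29 (SE), Myh7 at -0.80 ± 0.37 (SE) and Tnnc1 at -0.70 ± 0.29 (SE). In cHF+ROSI 6 of 8 were lower, with a median of -0.23 and 0 under this level. The slow fibre mean ran from -0.34 to 0.64 in cHF, from -1.06 to 0.37 in cHF+F and from -1.24 to 0.60 in cHF+ROSI. With group means removed, r with this mean was above 0 for 22 members and below 0 for 8, with the highest at 0.44 (Slc25a17, rho = 0.55), and 0 of the 30 members passed the adjustment: the smallest adjusted p over the 30 relations was 0.667 for r and 0.112 for rho (two-sided permutation tests, n = 24). Without the 2 arrays farthest from the median (cHF+ROSI mouse 8 and cHF+F mouse 2) r of Slc25a17 was 0.52, and with slide means removed it was -0.0046. With slide means removed, r of the members ran from -0.46 (Slc25a37) to 0.58 (Slc25a22), and 0 members passed the adjustment.

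Markers of other tissues were read in the same way. In cHF+ROSI 3 of 3 kept sperm markers were higher at an unadjusted p under 0.05, Prm1 at 1.70 ± 0.56 (SE), Prm2 at 1.21 ± 0.45 (SE) and Tnp1 at 0.73 ± 0.31 (SE), and their mean ran from -1.43 to 3.01 against -1.54 to -0.46 in cHF. Of 4 kept liver markers, Mup1 was 1.51 ± 0.69 (SE) and Apoc1 0.90 ± 0.33 (SE), the list mean running from -2.24 to 1.49 in cHF+ROSI and from -2.41 to -0.65 in cHF. The liver marker Ttr was well above background on 1 array. In cHF+ROSI the blood marker Hba-a1 was -0.49 ± 0.22 (SE), and the endothelial Kdr and Tek were -0.23 ± 0.11 (SE) and -0.17 ± 0.058 (SE). In cHF+F the endothelial Cdh5 was -0.19 ± 0.08 (SE) and the macrophage Csf1r -0.22 ± 0.10 (SE). Between the supplemented diets Prm1 was -1.48 ± 0.56 (SE), Prm2 -1.13 ± 0.45 (SE) and Hba-a1 0.47 ± 0.22 (SE). None of 6 adipocyte and 2 brown adipocyte markers reached this level, and Ucp1 was well above background on 2 arrays. The part of these cell types in the values of the carriers was not tested. Slc25a31, the germ cell ADP/ATP carrier, was well above background on 1 array.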

How the data were processed

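Gastrocnemius RNA of 24 mice was measured on 24 two-colour Agilent arrays, 8 per diet, with no dye swap. Per the file headers, the deposited scanner files hold spot and background intensity on a linear scale (Feature Extraction 10.5.1.1; the submitters' processing notes give 10.5.5.1). The authors also deposited log2 values, of which 16 columns were used as an alternative and 8 columns, named for a combined diet, were not used.

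Median signals were background-corrected (normexp, offset 50), normalized by loess within arrays (span 0.3, control and flagged spots without weight) and averaged per probe. A probe needed 4 unflagged arrays per group and a mean signal of at least 2 times background in both dyes, which 15958 probes passed; of a gene's kept probes the brightest stood for it. Signal over background stood for depth: 30.4% to 61.3% of spots were well above background in Cy5 on 23 arrays and 91.1% on the other, and the number of arrays limits precision. Probes were named through RefSeq accessions (12577 kept probes), by the scanner name only (2544) or not at all (837). The symbols of 3 Slc25 genes came through the accession alone. Coordinates are on mm8, the build of the array design; exon and UTR annotation of that build was not used here.

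Diets were compared with limma 3.58.1 (R 4.3.3) in a single fit of the 3 groups, with Benjamini-Hochberg adjustment over all kept probes and a threshold of 0.05. The method was run on simulated data with independent noise on each array and changes in cHF+F only. Variation shared by the arrays of a slide was not part of that simulation, so it does not show how the method handles it. Leaving flagged spots out of the loess curve was decided after a first look at the results with these spots in it, partly because counts then came nearer to an earlier processing of these data; the closing section gives both. Relations with the slow fibre mean used 100000 permutations within groups. Every kept member was named except 1, which is not reported here but is counted in the totals; values by mouse were given for Slc25a3, Slc25a4 and Slc25a5 and for the 5 members with the smallest p in each comparison, and genes of the other lists when their unadjusted p was under 0.05, at most 5 per list and comparison. The members and lists were chosen with earlier results of these data known. The slide equalled the replicate number, each slide held 1 array of every diet in a fixed place, and all arrays were scanned on 1 day, so diet and place on the slide cannot be told apart. Same-slide arrays deviated from their group means together with r from -0.11 to 0.64 between cHF and cHF+F.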

Additional observations from a re-analysis of the deposited data

Results flagged for a closer look

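Of 90 sets of 8 mice (30 members in 3 diets), 8 had 1 mouse separated from the others by a gap that took up most of the range, where chance alone gives about 1 in 20. In cHF+ROSI these were mouse 4 for Slc25a1 (log2 ratio -0.48, next -0.14), mouse 1 for Slc25a17 (0.53, next 0.14), mouse 1 for Slc25a24 (0.46, next 0.047), mouse 1 for Slc25a26 (0.43, next 0.20) and mouse 7 for Slc25a35 (-2.31, next -0.32). In cHF+F they were mouse 1 for Slc25a26 (0.53, next 0.25) and mouse 5 for Slc25a36 (0.35, next 0.17), and in cHF mouse 5 for Slc25a36 (0.40, next 0.16). The arrays of slide 1 account for 4 of the 8 and those of slide 5 for 2. The part of the slide in these values was not tested.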

How the results depend on the processing

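The count of called members was 0 in each comparison under every alternative run: no background correction, mean spot signals, median centring, a loess span of 0.1, the processed signals of Feature Extraction, Cy5 alone, no filter on dim probes, a signal minimum of 3, array weights, the methods' t-test, the mean of all probes of a gene, the authors' deposited log2 values (cHF+F against cHF only), leaving out each of the 24 mice in turn, and 2 settings chosen after seeing the data, leaving out slides 1 to 3 and keeping flagged spots in the loess curve. With the slide, which is the replicate number, as a replicate block it was 0 as a fixed and as a random term as well. Over all probes, the block called 6 probes in cHF+F as a fixed term and 20 as a random one (3 between the supplemented diets), array weights 13, mean spot signals 2 and no filter 3, where the fit without them called 0 (1094 at an unadjusted p under 0.05). With flagged spots in the loess curve, 1096, 751 and 1062 probes had an unadjusted p under 0.05 in cHF+F and cHF+ROSI against cHF and between the supplemented diets, where 1094, 750 and 1065 did without them; members were 1, 3 and 1 in both. The median changes moved by less than the spread of an array's median (SD 0.067) under all these settings. The number of kept genes was 26 at a signal minimum of 3 and 38 at 1.5. In Cy3 alone, the block raised the count of members at an unadjusted p under 0.05 from 1 to 4 in cHF+ROSI against cHF and from 0 to 1 between the supplemented diets. No share of all probes stands beside these counts. The difference of Slc25a3 between cHF+F and cHF+ROSI changed sign, to -0.0017 with median centring and to -0.023 in Cy5 alone; the cause was not tested. Slc25a22 in cHF+ROSI was -0.56 with the processed signals and -0.60 in Cy5 alone. Signal over background limits the 14 genes that were not kept to a statement on detection.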
